A study of Mus musculus with 14 samples.

Results

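The miR-17-92 and miR-106b-25 clusters were followed in a quantitative PCR screen of plasma miRNAs from mice with osteosarcoma (OS) and control mice. Wells were chosen by name as the members miR-17, miR-18a, miR-19a, miR-19b, miR-20a, miR-92a, miR-106b, miR-93 and miR-25, with either strand of the hairpin. This gave 14 of 392 named wells, of which 8 measure the guide strand of a hairpin and 6 the passenger strand, marked with an asterisk. There were 9 wells for miR-17-92 and 5 for miR-106b-25, and 8 of the 9 families had a named well. A well named miR-92a was not among them, so miR-92a was not analysed here.

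The OS group held 8 mice of a genetically engineered mouse model (GEMM) with diagnosed OS, and the control group held 6 healthy wild-type littermates. In the model a 2.3 kb Col-α1(I) promoter drives Cre, so that floxed Trp53, on one or both alleles, is deleted in osteoblasts. By the methods the controls also carry Cre and have intact p53. The number of floxed alleles, the tumor stage and the age of each OS mouse are not given in the sources used here, the study describes the controls as age matched, and the methods name further OS mice that were not analysed here. Each mouse gave 1 sample of EDTA plasma, in which the cells that released a miRNA and their number cannot be told apart.

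Each cluster is transcribed as a single primary RNA that is cut into several hairpins. The clusters are paralogs, and MYC and E2F factors are known to drive miR-17-92, which is best known as an oncogenic cluster in lymphoma. A guide strand finds its mRNA targets mainly through its seed, bases 2 to 8, so members with the same seed share many predicted targets. The passenger strand of a hairpin is usually degraded and found at lower amounts.

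In mouse genome build GRCm38.p6 the 6 hairpins of miR-17-92 lie on the plus strand at chr14:115043671-115044506, within 836 bases. The 3 hairpins of miR-106b-25 lie on the minus strand at chr5:138165321-138165818, within 498 bases and inside the gene Mcm7, which encodes a subunit of the replicative helicase. Mature miR-19b can also come from Mir19b-2 at chrX:52741983-52742066, so its level is not that of 1 locus. All 14 wells were matched to a mature sequence in RefSeq. The 8 guide strands carry 4 seeds, and they are shown here 5′ to 3′ with the seed in capitals, followed by the passenger strands of miR-18a and miR-106b, which are compared with their guides below.
miR-17: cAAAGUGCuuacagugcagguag
miR-20a: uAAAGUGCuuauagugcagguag
miR-106b: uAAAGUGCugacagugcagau
miR-93: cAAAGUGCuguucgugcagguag
miR-18a: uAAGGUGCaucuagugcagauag
miR-19a: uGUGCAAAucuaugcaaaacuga
miR-19b: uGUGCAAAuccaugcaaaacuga
miR-25: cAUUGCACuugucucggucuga
miR-18a*: aCUGCCCUaagugcuccuucug
miR-106b*: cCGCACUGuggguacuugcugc

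The 4 guide strands with the seed AAAGUGC come from both clusters. Counted from 1 at the 5′ end, miR-17 differs from miR-20a by C1U and C12U and from miR-106b by C1U, U10G and G20A, while miR-106b is shorter. The pair miR-106b and miR-93, of 1 cluster, has 16 of 21 bases the same. The pair miR-19a and miR-19b differs by U11C alone. How far an assay reads a near relative could not be measured from these wells, so values of such pairs hold only as far as the primers keep them apart.

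The amount of each miRNA was read as a quantification cycle (Cq), the cycle at which its PCR passes a threshold, so 1 cycle is a factor of 2 and a lower Cq is a larger amount. The level used below is the mean Cq of the retained miRNAs of that mouse minus the Cq of the miRNA, on a log2 scale. For that mean alone, a missing value was set to the mean of the mouse's group, or to Cq 38 where the group had none. The scaling thus depends in part on the group. Assays differ in efficiency, so a level is compared between mice and not between assays. The mean Cq was 31.7 ± 0.77 (SD, n = 6) in control and 32.1 ± 0.45 (SD, n = 8) in OS mice. A haemolysis marker, the Cq of miR-23a minus that of the red cell miRNA miR-451, was 5.77 ± 1.43 in control and 4.19 ± 1.94 in OS mice (exact permutation test, two-sided p = 0.117). It was above 7 in control 3 and control 13, and lowest in OS 10, OS 11 and OS 12. All 8 guide wells lie on panel I of the 2 PCR panels, as do miR-18a* and miR-20a*, and the other passenger wells lie on panel II.

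All 14 members passed the filter on missing values, and 13 of them had a Cq of 37 or less in every mouse. Of all 389 named miRNAs, 388 were tested, and 276 had such a Cq in every mouse. Over the 388 miRNAs tested, 6.44% were lower and 6.19% were higher in OS mice at an adjusted p under 0.05 (limma with Benjamini-Hochberg adjustment). Of the 14 members, 1 was lower and 0 were higher, close to those shares. The member that fell was miR-106b. All 8 guide strands had an estimate below 0, with a median log2 difference of −0.63, and the 6 passenger strands had 4 estimates above 0 and a median of 0.09. The median over all 388 miRNAs was −0.0027, and 195 of them were below 0. With each panel scaled to its own mean, miR-19b-1*, miR-106b* and miR-93*, all on panel II, were below 0 (−0.089, −0.29 and −0.42). The guide strand miR-19b was then at 0.018, so these counts of signs depended on how the panels were scaled.

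**Figure D1:**
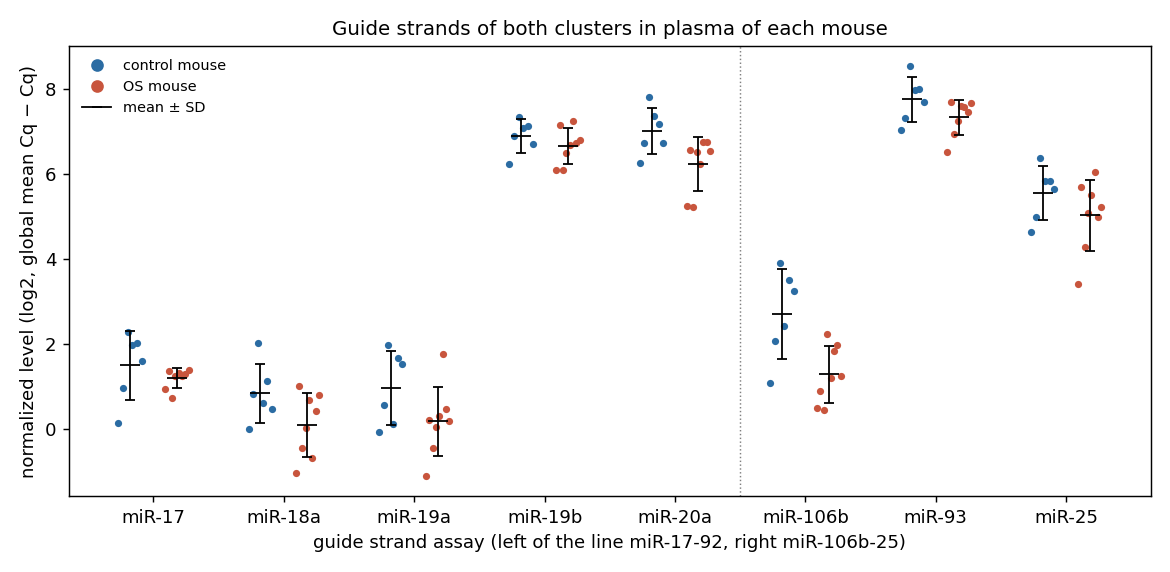
Normalized level (log2, global mean Cq minus Cq) of the 8 guide strands in each of 6 control and 8 OS mice, with the mean and SD of each group. The OS means are below the control means for all 8, and the groups overlap for each of them.

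mmu-miR-106b, a guide strand with the miR-17 seed, had a level of 1.07 at the lowest, 2.83 at the median and 3.90 at the highest in control mice, and of 0.44, 1.22 and 2.22 in OS mice. The groups overlapped, with 3 of 8 OS mice below every control mouse. Its level was 2.67-fold lower in OS mice, a log2 difference of −1.42 (SE 0.45, limma adjusted p = 0.0443), and the exact permutation test gave p = 0.0110. The call was lost, with an adjusted p of 0.0519 to 0.125, when any one of control 2, 3, 4, 13 or 14 or OS 10, 11, 12, 16 or 19 was left out, while the difference stayed between −1.74 and −1.17 over all 14 omissions. The call was also lost with the haemolysis marker in the model (−0.79, SE 0.35, limma adjusted p = 0.279), without mice with a marker above 7 (−0.93, adjusted p = 0.258), and under 4 other scalings, a Cq limit of 35 and the methods' t-test (−1.85 to −1.17, adjusted p of 0.0516 to 0.0784). Over all miRNAs tested, the calls also fell in these settings, from 49 to between 17 and 43.

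mmu-miR-19b, a guide strand of the GUGCAAA family, had levels of 6.22, 6.98 and 7.33 at the lowest, median and highest in control mice and of 6.09, 6.70 and 7.24 in OS mice. The groups lay over nearly the same range, with 2 OS mice below every control. The log2 difference was −0.23 (SE 0.31, 95% interval −0.88 to 0.42, limma adjusted p = 0.648). The spread of miR-19b within groups, an SD of 0.41, was the 17th lowest of the 276 miRNAs measured in every mouse, whereas that of miR-106b, 0.85, ranked 157.

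Among the other members of the AAAGUGC family, miR-20a had a log2 difference of −0.79 (SE 0.36, limma adjusted p = 0.150). Its levels were 6.26, 6.94 and 7.79 in control and 5.21, 6.52 and 6.75 in OS mice, and 3 OS mice lay below every control. For miR-93 the levels were 7.03, 7.82 and 8.52 in control and 6.52, 7.50 and 7.68 in OS mice, a difference of −0.42 with an adjusted p of 0.403 by limma. For miR-17 they were 0.14, 1.78 and 2.28 in control and 0.73, 1.27 and 1.38 in OS mice, a difference of −0.31 with an adjusted p of 0.578. All 8 OS mice were thus inside the control range of miR-17, and the control mice had the wider spread (SD 0.81 against 0.23). The same seed was therefore carried by 1 member that passed the test and 3 that did not.

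The remaining guide strands each form or belong to another seed group. The level of miR-18a was −0.01, 0.71 and 2.01 in control and −1.03, 0.22 and 1.01 in OS mice, with a log2 difference of −0.74 and an adjusted p of 0.220 by limma. The level of miR-19a was −0.08, 1.05 and 1.97 in control and −1.10, 0.19 and 1.76 in OS mice, with a difference of −0.79 and an adjusted p of 0.236. That of miR-25, the AUUGCAC member of miR-106b-25, was 4.62, 5.73 and 6.36 in control and 3.41, 5.15 and 6.05 in OS mice, with a difference of −0.52 and an adjusted p of 0.423. The groups overlapped for all 3, with 3, 2 and 2 OS mice below every control.

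**Figure D2:**
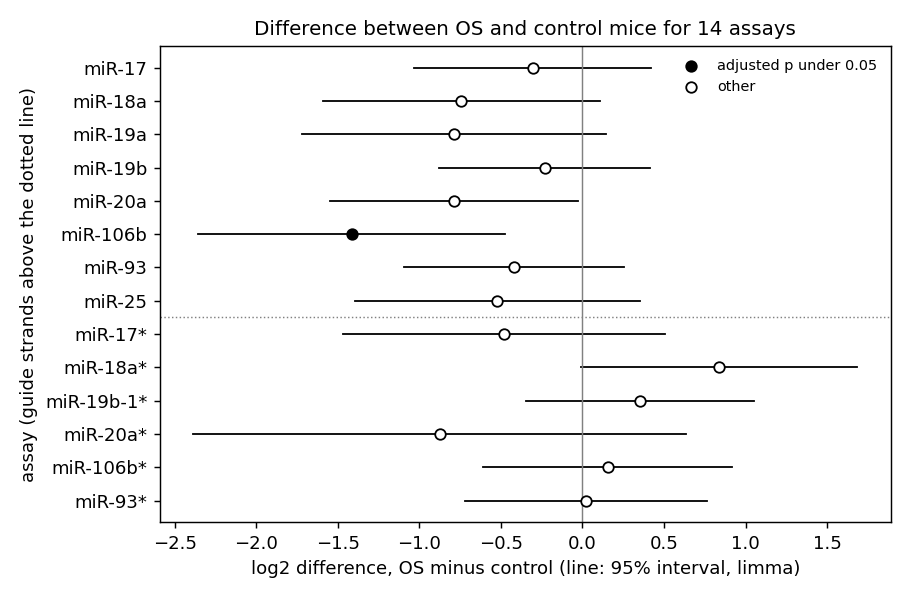
Log2 difference of the normalized level, OS minus control, for the 14 wells (points) with 95% intervals from limma (lines), where a filled point has an adjusted p under 0.05. The point for miR-106b is filled, all 8 guide strands lie below 0, and miR-18a* at 0.84 is the passenger strand farthest above 0.

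None of the 6 passenger strands passed the test. For miR-18a* the lowest, median and highest levels were −0.72, −0.53 and 0.50 in control and −0.73, 0.49 and 1.85 in OS mice, and 4 of 8 OS mice lay above every control. Its log2 difference was 0.84 (SE 0.40, limma adjusted p = 0.165), opposite in sign to that of its guide. The differences were 0.35 for miR-19b-1*, 0.15 for miR-106b*, 0.02 for miR-93* and −0.48 for miR-17*, with limma adjusted p-values of 0.498, 0.804, 0.980 and 0.513. The well for miR-20a* was at or under Cq 37 in 5 of 6 control and 5 of 8 OS mice (Fisher's exact test, two-sided p = 0.580), and its difference of −0.87 (limma adjusted p = 0.431) was fitted without the 4 other mice.

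Within a mouse, the Cq difference between members needs no scaling to other miRNAs. A rise of this difference means that the first miRNA became less abundant relative to the second. The 7 pairs of guide strands with a shared seed were compared between groups by exact permutation tests, in which the smallest possible p is 0.000333, with adjustment over the 7 pairs. The pair miR-17 minus miR-106b, 1 from each cluster, passed. Its difference was 0.46, 1.29 and 1.64 cycles at the lowest, median and highest in control mice and −0.46, −0.14 and 0.98 in OS mice, and 5 of 8 OS mice lay below every control. The mean moved by −1.11 cycles, a factor of 2.16 (p = 0.00433 by the exact permutation test, adjusted 0.0303). The adjusted p was 0.0544 to 0.0761 when any one of control 2, 3, 13 or 14 or OS 10, 11, 12, 16 or 19 was left out, with the shift between −1.26 and −1.02 over all 14 omissions.

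With the haemolysis marker as a covariate, a setting added after the data were seen, the shift of miR-17 minus miR-106b was −0.71 cycles (permutation of residuals, adjusted p = 0.0146). Without the mice with a marker above 7 it was −0.94 cycles (exact permutation test, adjusted p = 0.134). The other contrasts with miR-106b share its well, and its log2 difference was the lowest of its seed family. That they pointed the same way follows from this and is no separate result. The difference miR-106b minus miR-93 was 4.44, 4.94 and 5.96 cycles in control and 5.02, 6.22 and 6.78 in OS mice, and 5 of 8 OS mice lay above every control, with a shift of 1.00 cycles (exact permutation p = 0.0143, adjusted 0.0501). For miR-20a minus miR-106b the shift was −0.63 cycles (exact permutation p = 0.0626, adjusted 0.0876). With the marker in the model these shifts were 0.60 and −0.34 cycles (permutation of residuals, adjusted p = 0.169 and 0.354).

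The pairs without miR-106b had smaller shifts, none of which passed. The shift was −0.11 cycles for miR-17 minus miR-93 (exact permutation p = 0.512), although the members come from different clusters. It was 0.37 for miR-20a minus miR-93 and −0.48 for miR-17 minus miR-20a, with adjusted p-values of 0.0769 and 0.0876 by the exact permutation test. For miR-19a minus miR-19b, which differ by 1 base, it was 0.56 cycles (exact permutation p = 0.114). The adjusted p of miR-106b minus miR-93 fell to 0.0204 to 0.0476 without control 1, control 4, OS 15, OS 17 or OS 18, that of miR-20a minus miR-93 to 0.0354 to 0.0476 without OS 15, OS 17 or OS 18, and that of miR-20a minus miR-106b to 0.0417 without control 1.

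**Figure D3:**
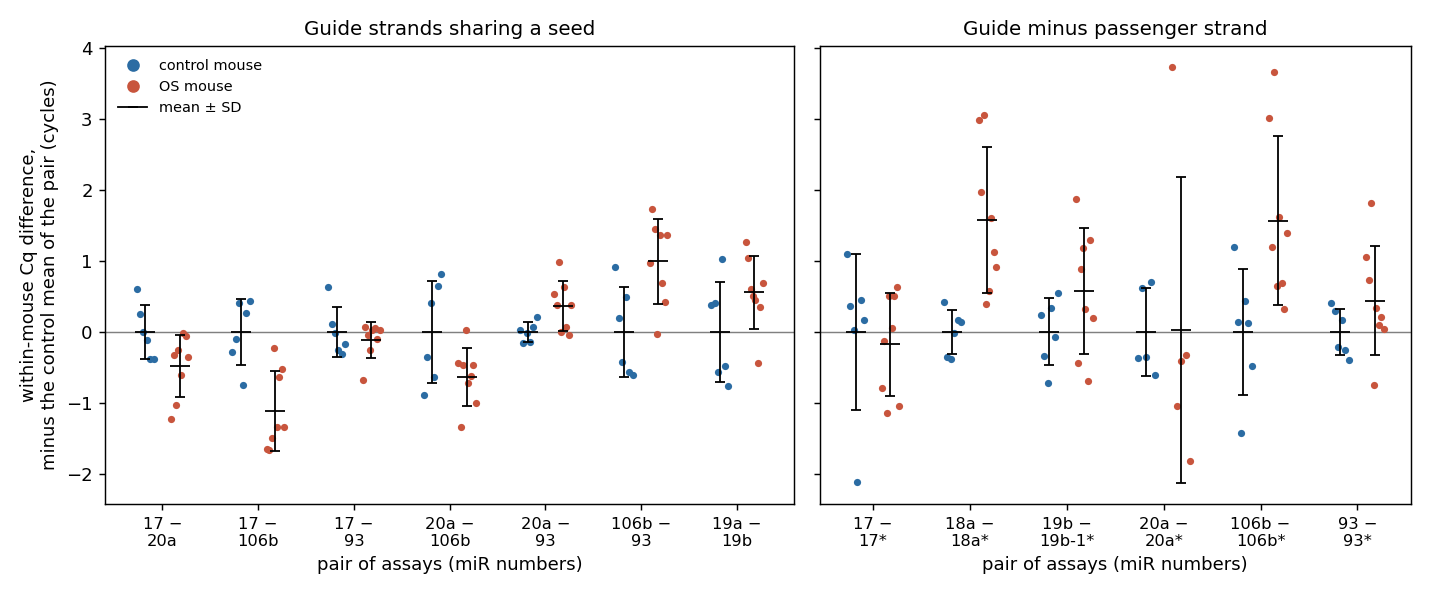
Within-mouse Cq difference, in cycles, of 7 pairs of guide strands with a shared seed (left) and of 6 guides and their passenger strands (right), each minus the control mean of that pair. Points are mice and bars are the mean and SD, with miR-17 minus miR-106b shifted by −1.11 and miR-18a minus miR-18a* by 1.58 in OS mice.

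Guide and passenger strands of 1 hairpin are cut from the same precursor molecule, although miR-19b can also come from the hairpin on chromosome X. Their Cq differences were compared in 6 pairs, a comparison added after the data were seen, and 2 pairs passed after adjustment over the 6. The difference miR-18a minus miR-18a* was −1.51, −1.07 and −0.71 cycles in control and −0.74, 0.24 and 1.93 in OS mice, so that 7 of 8 OS mice lay above every control. Its shift of 1.58 cycles, a factor of 2.99, had an exact permutation p of 0.00366 (adjusted 0.0220). Both strands are read on the same panel, and no OS minus control difference of either strand alone passed the test. The adjusted p was 0.0513 to 0.0559 when control 2, 3 or 4 was left out. Without the mice with a marker above 7 the shift was 1.53 cycles (exact permutation test, adjusted p = 0.121). When the haemolysis marker was a covariate, the shift was 1.05 cycles (permutation of residuals, adjusted p = 0.0633).

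The difference miR-106b minus miR-106b* was −5.01, −3.46 and −2.39 cycles in control and −3.27, −2.29 and 0.08 in OS mice, and 4 of 8 OS mice lay above every control. The shift was 1.57 cycles (exact permutation p = 0.0150, adjusted 0.0450). These strands are on different panels. With each panel on its own mean, the level differences were −1.17 for miR-106b and −0.29 for miR-106b*, instead of −1.42 and 0.15. The pair was not tested in that setting. Between the panels, 3 miRNAs read on both moved by −0.05 cycles on average from control to OS mice. The adjusted p was 0.0559 to 0.138 without any one of control 2, 3, 4, 13 or 14 or OS 10, 11, 12, 16 or 19, and it was 0.232 for a shift of 0.82 cycles when the marker entered as a covariate (permutation of residuals). Without the mice with a marker above 7 the shift was 1.25 cycles (exact permutation test, adjusted p = 0.248), so that 0 of the 6 pairs passed in that setting. The other 4 pairs had shifts of −0.17 (miR-17), 0.58 (miR-19b), 0.44 (miR-93) and 0.03 (miR-20a, 5 mice a group), with adjusted p-values of 0.331 to 0.984 by the exact permutation test.

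The clusters as wholes were compared by the mean Cq of the 5 miR-17-92 guide strands minus that of the 3 miR-106b-25 guide strands in each mouse. This difference was 1.60, 1.97 and 2.12 cycles at the lowest, median and highest in control and 1.45, 1.66 and 1.99 in OS mice. The groups overlapped, with means of 1.89 ± 0.19 (SD, n = 6) and 1.68 ± 0.18 (SD, n = 8) and a shift of −0.21 cycles. Without miR-106b the means were 3.21 ± 0.18 and 3.31 ± 0.21, a shift of 0.10 cycles of the opposite sign. No test was made of these means over members. Summed guide strand levels ranged from 8.29 to 9.75 in control and from 7.73 to 9.03 in OS mice.

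How closely 2 miRNAs moved together was measured by the SD of their Cq difference over the 14 mice. The 28 pairs of guide strands had a median SD of 0.59 cycles, from 0.25 to 0.89, beside a median of 1.30 over all 37950 pairs of miRNAs measured in every mouse. The pairs with the lowest SDs, miR-19b with miR-93 (0.25 cycles) and miR-17 with miR-93 (0.29 cycles), both joined the clusters. The median was 0.60 for the 13 pairs within a cluster and 0.54 for the 15 between clusters, and 0.63 for the 7 pairs with a shared seed and 0.58 for the other 21. The 7 pairs with miR-106b had a median of 0.78 cycles. These SDs are over mice of both groups and share wells, so they are given as a description. All guide wells are on panel I, while the 37950 pairs also join wells of different panels, so their median is not a matched comparison.

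Among 263 miRNAs that are no members and were measured in every mouse, those nearest to miR-19b by this SD were miR-222 (0.24 cycles), miR-425 (0.27), rno-miR-7a-1* (0.38), miR-421 (0.38) and miR-484 (0.39). Those nearest to miR-106b were let-7i (0.39 cycles), miR-15a (0.40), miR-15b (0.43), miR-107 (0.46) and miR-181c (0.47). Neighbours were chosen over mice of both groups, so their differences between groups follow in part from that choice and are given as a description. The log2 differences were −1.17, −1.66, −1.02, −1.25 and −1.31, in the same order, beside −1.42 for miR-106b. The nearest members, chosen among 7 and not 263 miRNAs, were miR-93 for miR-19b (0.25 cycles) and miR-19a for miR-106b (0.62 cycles).

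Seed relatives encoded elsewhere had 3 tested wells, of which 0 passed in either direction. The level of miR-106a, an X-linked relative that differs from miR-17 by U10A alone, had a log2 difference of −0.46 (limma adjusted p = 0.447). The AUUGCAC relatives of miR-25 went apart, with −1.58 for miR-32 (limma adjusted p = 0.0748) and 2.38 for miR-92b (limma adjusted p = 0.0504, measured in 4 control and 7 OS mice). All 4 wells of the miR-34 family, whose members are direct targets of p53, had estimates below 0, beside 195 of all 388 miRNAs, and 0 of 4 passed. The difference of miR-34a was −0.03 (limma adjusted p = 0.980). The wells of miR-34b-3p (4 control and 7 OS mice) and miR-34b-5p (6 and 6) lacked values in some mice. The lowest of these was miR-34c at −1.68 (limma adjusted p = 0.0504).

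Levels of guide strands were set against the haemolysis marker over the 14 mice, in 8 relations with p-values adjusted over them. For miR-106b the Pearson r was 0.84 (permutation test, adjusted p = 0.00096) and the Spearman rho was 0.81 (adjusted p = 0.00608). The r was 0.80 without control 13 and OS 10, the 2 mice with the marker farthest from its median, 0.86 within the 6 control mice (exact permutation p = 0.0528) and 0.89 within the 8 OS mice (exact permutation p = 0.00392). The relation was not limited to miR-106b, and how many of the 276 miRNAs measured in every mouse share it was not computed. Of the other 7 guide strands 5 also passed by r over the 14 mice, miR-19a (0.73) and miR-20a (0.72) with an adjusted p of 0.00883 and miR-18a, miR-93 and miR-25 (0.61, 0.64 and 0.62) with an adjusted p of 0.0277, all by the permutation test. By rho miR-19a passed as well (0.69, permutation test, adjusted p = 0.0337), and within control mice its r was 0.98 (exact permutation p = 0.0111). For miR-17 and miR-19b r was 0.52 and 0.45 (permutation test, adjusted p = 0.0663 and 0.108). Without the same 2 mice r of these 7 guide strands lay between 0.17 and 0.55, with permutation p-values of 0.0578 to 0.596. In OS mice the levels of miR-106b thus followed the marker from OS 10 and OS 12 at the low end to OS 15 and OS 18 at the high end.

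Of the cell type markers, the 4 red blood cell miRNAs were measured in every mouse, and 1 of 4, miR-144, was lower in OS mice (log2 difference −2.38, limma adjusted p = 0.0131), beside 6.44% of all 388 miRNAs. The difference of miR-451 was −1.43 (limma adjusted p = 0.132), and those of miR-486 and miR-486* were 0.05 and 0.04. Their summed level, in which miR-451 has the greatest weight, ranged from 11.9 to 13.9 in control and from 8.99 to 12.9 in OS mice. The 5 white blood cell and platelet wells were also measured in every mouse, and 1 of 5, miR-142-3p, was lower (log2 difference −3.57, limma adjusted p = 0.00326), beside the same 6.44%. The others did not pass, with −1.18 for miR-142-5p, −0.49 for miR-223, −0.24 for rno-miR-223 and 0.02 for miR-150 (limma adjusted p of 0.106 to 0.980). The summed level of these wells, in which miR-223 counts through its mouse and its rat assay, ranged from 8.29 to 9.56 in control and from 7.58 to 8.31 in OS mice. The part of blood cells in the level of miR-106b was not tested beyond the covariate and the omissions given with it.

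**Figure D4:**
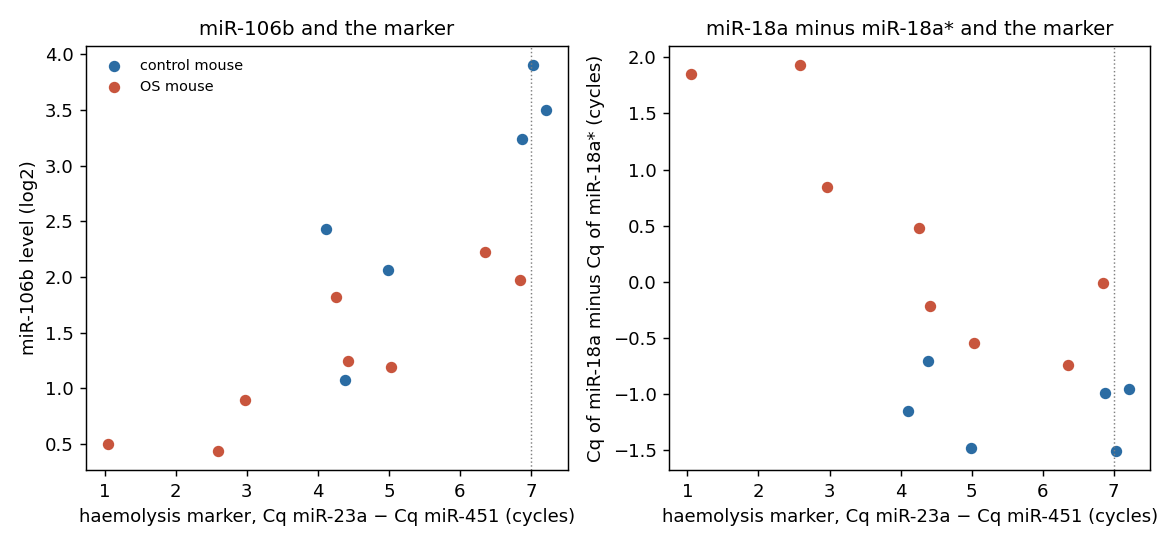
Level of miR-106b (log2, left) and Cq of miR-18a minus Cq of miR-18a* (cycles, right) against the haemolysis marker, Cq of miR-23a minus Cq of miR-451 (cycles), where each point is a mouse and the dotted line marks 7. Levels of miR-106b run up with the marker in both groups (r = 0.84 over 14 mice), and the strand difference is highest in OS 10 and OS 12.

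Of the within-mouse differences that involve miR-106b or miR-18a*, 2 were also set against the marker, chosen after their values were seen. The correlation of miR-17 minus miR-106b, the seed pair that passed, with the marker was not tested. For miR-106b minus miR-93 the r was −0.77 (rho −0.79, permutation test, adjusted p = 0.00132 and 0.00244), −0.83 without the same 2 mice, −0.95 within control and −0.61 within OS mice. For miR-18a minus miR-18a* the r was −0.77 (rho −0.66, permutation test, adjusted p = 0.00132 and 0.0128), −0.66 without those mice, −0.16 within control and −0.86 within OS mice. The first relation thus had the same sign in both groups, and the second was weak within control mice.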

How the data were processed

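The authors deposited Cq values, a log2 scale, for 768 wells per mouse, of which 13.9% to 24.7% were blank, measured on Exiqon mouse panels I and II. By the methods, the authors made their comparison in GenEx after they calibrated between plates, deleted outliers and set a background limit at Cq 37. They dropped miRNAs missing in 75% or more, imputed gaps from mice of the same group, put the remaining gaps at Cq 38 and last scaled to the global mean. The values used here precede that scaling. Neither the labels nor the methods say whether they precede the calibration. A deposited table of the authors' own fold changes and p-values was used only to name wells. A Cq has no count behind it, so precision rests on the spread between mice. The p-values set a difference or a correlation against that spread.

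Groups came from the sample labels. Values above Cq 37 counted as missing, a miRNA without a value in at least 75% of all mice was dropped, wells of the same miRNA were averaged, and each mouse was scaled to its global mean. Differences were tested with limma 3.58.1 in R 4.3.3 over 388 miRNAs with all 14 mice and Benjamini-Hochberg adjustment, tested first on simulated data. Within-mouse differences used exact permutation tests, and correlations used 100000 permutations or all of them, in scipy 1.17.1. All tests were two-sided. The members and lists were chosen with earlier results of these data known. All member wells were named, with up to 4 miRNAs of each list and the 5 nearest neighbours of miR-19b and miR-106b. Sequences and positions are from RefSeq (GRCm38.p6). The seed pair of miR-92a and miR-25 was not analysed here.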

Additional observations from a re-analysis of the deposited data

Results flagged for a closer look

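Of 46 groups of values tested for a mouse far from the others, 2 were set apart, and chance alone sets apart about 1 in 20 groups. The level of miR-20a* in OS 10 was −0.75 (log2), while the 4 other OS mice with a value lay between −4.80 and −3.64. The Cq difference of miR-17 minus miR-93 in OS 10 was 5.57 cycles, while the 7 other OS mice lay between 6.00 and 6.32. Both belong to the OS mouse with the lowest haemolysis marker, 1.05 cycles, whose part in them was not tested. Neither flagged value is a guide minus passenger difference. Among those, miR-17 minus miR-17* was −2.13 cycles in control 4, beside 0.02 to 1.08 in the other control mice. For miR-20a minus miR-20a* the value was −5.99 cycles in OS 10, beside −11.55 to −10.05 in the other OS mice with a value.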

How the results depend on the processing

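The count of members past the threshold, 1, was 0 after scaling to 3 reference miRNAs or to the median, unscaled, with each panel on its own mean, with a Cq limit of 35, by the methods' t-test with adjustment, with the haemolysis marker as a covariate and without mice with a marker above 7. It stayed at 1 with missing values at Cq 38, no Cq limit and no filter, and was 0 or 1 without single mice. Over all miRNAs tested (388, or 336 with the Cq limit of 35), 49 passed in the main fit, where miR-106b ranked 47 by p. In the settings with 0 members named above, 33, 42, 21, 43, 29, 24, 17 and 20 passed, in the same order. Without single mice 20 to 73 of all miRNAs passed. Over all these settings miR-106b differed by −1.85 (unscaled, where all 388 miRNAs had a median of −0.45) to −0.79 (marker as a covariate), and its adjusted p was 0.0719 with reference miRNAs, 0.0679 with the median (median of all miRNAs 0.14), 0.0693 unscaled, 0.0784 by panel, 0.0516 with the Cq limit of 35 and 0.0781 by the methods' t-test. All 8 guide strands stayed below 0 except miR-19b at 0.018 with panels scaled separately and miR-17 at 0.015 without mice with a marker above 7. The count of seed pairs past the threshold, 1, was 0 without those mice, 1 with the covariate and 0 to 3 without single mice. The shift between the clusters was −0.27 to −0.17 cycles without single mice.

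Other signs turned only for values that had not passed. With each panel on its own mean the differences were −0.089 for miR-19b-1*, −0.29 for miR-106b* and −0.42 for miR-93*, and unscaled they were −0.084, −0.28 and −0.41. The difference of miR-93* was also −0.032 with reference miRNAs, −0.026 with the Cq limit of 35 and −0.17 with the covariate. That of miR-17* was 0.16 with the covariate, and that of miR-20a* 1.80 with the Cq limit of 35. For miR-20a* the only OS mouse left under that limit was OS 10, at Cq 32.47, so this value rests on that mouse. Without single mice miR-106b* lay between −0.028 and 0.33 and miR-93* between −0.12 and 0.21, and the Cq shifts between −0.17 and 0.014 for miR-17 minus miR-93, −0.60 and 0.0445 for miR-17 minus miR-17*, and −0.90 and 0.49 for miR-20a minus miR-20a*. With the covariate the last 2 shifts were 0.24 and −0.82. The causes were not tested. The cluster comparison is the same on 1 panel or with mouse assays only, since all guide wells are mouse assays on panel I. No paired analysis was possible because the groups share no replicate numbers. The smallest shift that 6 and 8 mice can show was not tested.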
